A study of Homo sapiens with 4 samples.

Results

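The HOX genes of the 4 human clusters were described here in 2 endometrial cancer cell lines. Members were the rows of the deposited tables whose symbol is HOXA, HOXB, HOXC or HOXD followed by digits alone, which gave 39 of 22494 features. HOXA held 11 of them, HOXB 10, HOXC 9 and HOXD 9. The study asked which genes differ when endometrial cancer cells carry extra tRF-20-S998LO9D, a fragment of a transfer RNA. HEC-1-A cells, an established line from an endometrial adenocarcinoma, had been transfected with a mimic of this fragment or with the matching negative control of mimics. RL-95-2 cells, another established endometrial carcinoma line, had received the same pair of transfections. Each line and transfection gave 1 poly(A) RNA library, so 4 libraries were compared, and each line is a single cancer cell line with no normal endometrium beside it. The labels give neither the dose nor the time of transfection.

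HOX genes encode homeodomain transcription factors that give cells their position along the head-to-tail axis. Within a cluster the genes lie in the order in which they are used along that axis, with low paralog numbers at the anterior end and high paralog numbers at the posterior end. Clusters keep this pattern through trithorax (MLL) and Polycomb complexes, which hold chromatin active or silent, and HOX proteins bind DNA together with PBX and MEIS partners. In the female reproductive tract, HOXA9, HOXA10, HOXA11 and HOXA13 mark successive parts of the Müllerian duct, from the oviduct over the uterus and cervix to the upper vagina. HOXA10 and HOXA11 are also used in the adult endometrium, where they are needed for implantation in mice. Below, paralogs 1 to 3 are called anterior (8 members), 4 to 8 central (15 members) and 9 to 13 posterior (16 members).

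Totals lay between 33575882 and 46220053 counts per library, and 17016 to 17640 features had a count. All 7 epithelial markers examined, EPCAM and CDH1 among them, were above 3 counts in every library, and PAX8, a Müllerian epithelial factor, stood at 57.6 to 80.3 FPKM (fragments per kilobase of transcript, scaled by library size). SOX17, another Müllerian factor, was at 0 counts in all 4 libraries. On the same list PAX2 and WT1 differed between the lines in opposite directions. PAX2 had 674 and 640 counts in HEC-1-A with mimic and control, against 8 and 4 in RL-95-2. WT1 had 5 and 0 against 458 and 221 counts. Markers of other cell types were not level between the lines. The 7 stromal markers summed to 1.48 and 0.548 FPKM in the HEC-1-A mimic and control libraries, against 11.2 and 12.4 FPKM in the RL-95-2 mimic and control libraries, and the 6 endothelial markers to 0.948 and 0.342 against 17.1 and 16.0 FPKM. The 7 blood markers summed to 0.566 and 0.412 against 3.11 and 3.60 FPKM. CDH5 had 0 and 0 counts in HEC-1-A, against 1207 and 548 in RL-95-2, and EGFL7 had 61 and 27 against 733 and 747. COL1A1 had 286 and 98 against 2788 and 3051 counts, and CD68 had 45 and 26 against 243 and 293. PDGFRB, also a stromal marker, lay the other way at 61 and 30 against 20 and 24 counts. Other markers of these types, COL1A2, DCN and HBB, had 0 counts in all 4 libraries, and PECAM1 had 6 with the mimic in HEC-1-A and 0 elsewhere. The part of these markers in the HOX differences was not tested. In bulk RNA, fewer cells with a transcript and less of it per cell cannot be told apart.

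Promoters are shown for 6 genes on which the difference between the lines turns. HOXA4 was among the 3 genes higher in HEC-1-A, HOXA9 lies further along the same cluster and was lower, and HOXA10 lies beside HOXA9 and did not pass the test. HOXD10, HOXD11 and HOXD13 are posterior genes with at most 2 counts in HEC-1-A. The windows are 300 bases, 250 before and 50 after the RefSeq start, from the RefSeq promoter table of GRCh38.p14, written 5′ to 3′ on the gene's own strand. HOXA4 is at chr7:27130708-27131007, HOXA9 at chr7:27165488-27165787 and HOXA10 at chr7:27179812-27180111, all on the minus strand. HOXD10 is at chr2:176116528-176116827, HOXD11 at chr2:176107030-176107329 and HOXD13 at chr2:176092471-176092770, all on the plus strand. Capitals mark the 4 motifs searched on both strands. These were CCAAT, known from many promoters, the E-box CACGTG, the core promoter element TATAAA, and TGATNNAT, which HOX and PBX proteins bind together.
HOXA4: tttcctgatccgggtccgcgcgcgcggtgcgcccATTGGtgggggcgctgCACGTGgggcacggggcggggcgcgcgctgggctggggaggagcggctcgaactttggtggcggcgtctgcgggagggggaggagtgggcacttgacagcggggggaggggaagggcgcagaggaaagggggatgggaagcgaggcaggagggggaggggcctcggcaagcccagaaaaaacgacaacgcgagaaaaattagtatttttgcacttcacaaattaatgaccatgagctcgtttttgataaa
HOXA9: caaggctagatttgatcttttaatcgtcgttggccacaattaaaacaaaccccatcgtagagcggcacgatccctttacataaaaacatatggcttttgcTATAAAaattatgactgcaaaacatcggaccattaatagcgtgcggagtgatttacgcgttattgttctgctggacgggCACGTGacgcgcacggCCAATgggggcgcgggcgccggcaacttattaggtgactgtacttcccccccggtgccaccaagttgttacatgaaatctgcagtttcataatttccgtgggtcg
HOXA10: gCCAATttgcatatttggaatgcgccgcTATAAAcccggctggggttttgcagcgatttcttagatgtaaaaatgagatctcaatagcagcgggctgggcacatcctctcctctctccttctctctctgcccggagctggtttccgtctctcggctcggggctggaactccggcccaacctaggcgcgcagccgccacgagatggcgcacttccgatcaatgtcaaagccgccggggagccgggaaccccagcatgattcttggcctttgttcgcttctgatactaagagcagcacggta
HOXD10: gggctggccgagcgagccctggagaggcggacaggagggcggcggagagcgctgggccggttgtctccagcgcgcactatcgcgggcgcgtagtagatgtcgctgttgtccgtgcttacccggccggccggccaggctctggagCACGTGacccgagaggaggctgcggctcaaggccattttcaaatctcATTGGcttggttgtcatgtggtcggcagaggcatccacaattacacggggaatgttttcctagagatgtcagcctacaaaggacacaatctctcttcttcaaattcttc
HOXD11: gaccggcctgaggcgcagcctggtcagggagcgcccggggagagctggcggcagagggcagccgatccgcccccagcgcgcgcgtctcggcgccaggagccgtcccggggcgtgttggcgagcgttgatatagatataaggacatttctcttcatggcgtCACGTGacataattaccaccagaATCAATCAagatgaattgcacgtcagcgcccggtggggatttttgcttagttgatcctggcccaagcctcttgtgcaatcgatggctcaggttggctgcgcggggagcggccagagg
HOXD13: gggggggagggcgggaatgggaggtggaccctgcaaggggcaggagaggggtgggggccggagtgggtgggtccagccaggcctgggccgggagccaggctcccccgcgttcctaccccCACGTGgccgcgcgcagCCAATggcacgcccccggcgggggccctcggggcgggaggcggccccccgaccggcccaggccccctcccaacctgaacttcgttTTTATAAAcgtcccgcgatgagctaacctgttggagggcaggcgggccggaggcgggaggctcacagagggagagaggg

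All 6 windows held CCAAT or CACGTG, and 4 of them (HOXA4, HOXA9, HOXD10 and HOXD13) held both. The higher gene HOXA4 and the lower genes HOXA9, HOXD10 and HOXD13 thus shared these letters. Over the 27 windows of the 20 members in the table, CCAAT was found in 66.7% of windows, against 34.6% of all 35116 promoter windows. CACGTG was found in 33.3% of HOX windows and in 7.26% of all windows. TATAAA was in 18.5% against 11.5%, and TGATNNAT in 11.1% against 7.40%. No match of 1 motif overlapped a match of another, while the TATAAA of HOXD13 was matched on both strands. The HOX windows held a median of 22 CG dinucleotides, against 14 in all windows. HOXA3 and HOXA10 have several windows and HOXC4 and HOXC5 share 1, so the windows are not independent, and a match is a description of letters and not of binding.

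RL-95-2 carried more kinds of HOX transcript than HEC-1-A, and the extra kinds were mostly posterior. The number of members above 3 counts, the floor used here for a library, was 26 in HEC-1-A with the mimic and 23 with the control, against 36 and 34 in RL-95-2. The floor corresponds to 0.0670, 0.0906, 0.0609 and 0.0769 CPM (counts scaled to library size) in the same order. Of the members, 10 were above the floor in both RL-95-2 libraries and in neither HEC-1-A library, 22 were above it in all 4 libraries, and 0 were above it in HEC-1-A alone. Those above it in RL-95-2 alone were HOXA13, HOXB5, HOXC8, HOXC9, HOXC11, HOXD1, HOXD10, HOXD11, HOXD12 and HOXD13. The share of all features above the floor in 1 line alone was not counted, so these numbers are a description. Features with any count numbered 17640 and 17016 in HEC-1-A with mimic and control, against 17466 and 17146 in RL-95-2. HOXB1 and HOXC5 had no count in any library. HOXC4 had 4, 2, 0 and 0 counts and HOXC12 had 0, 0, 7 and 0 counts in the HEC-1-A mimic, HEC-1-A control, RL-95-2 mimic and RL-95-2 control libraries, so both stayed under 10 counts in all.

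**Figure D1:**
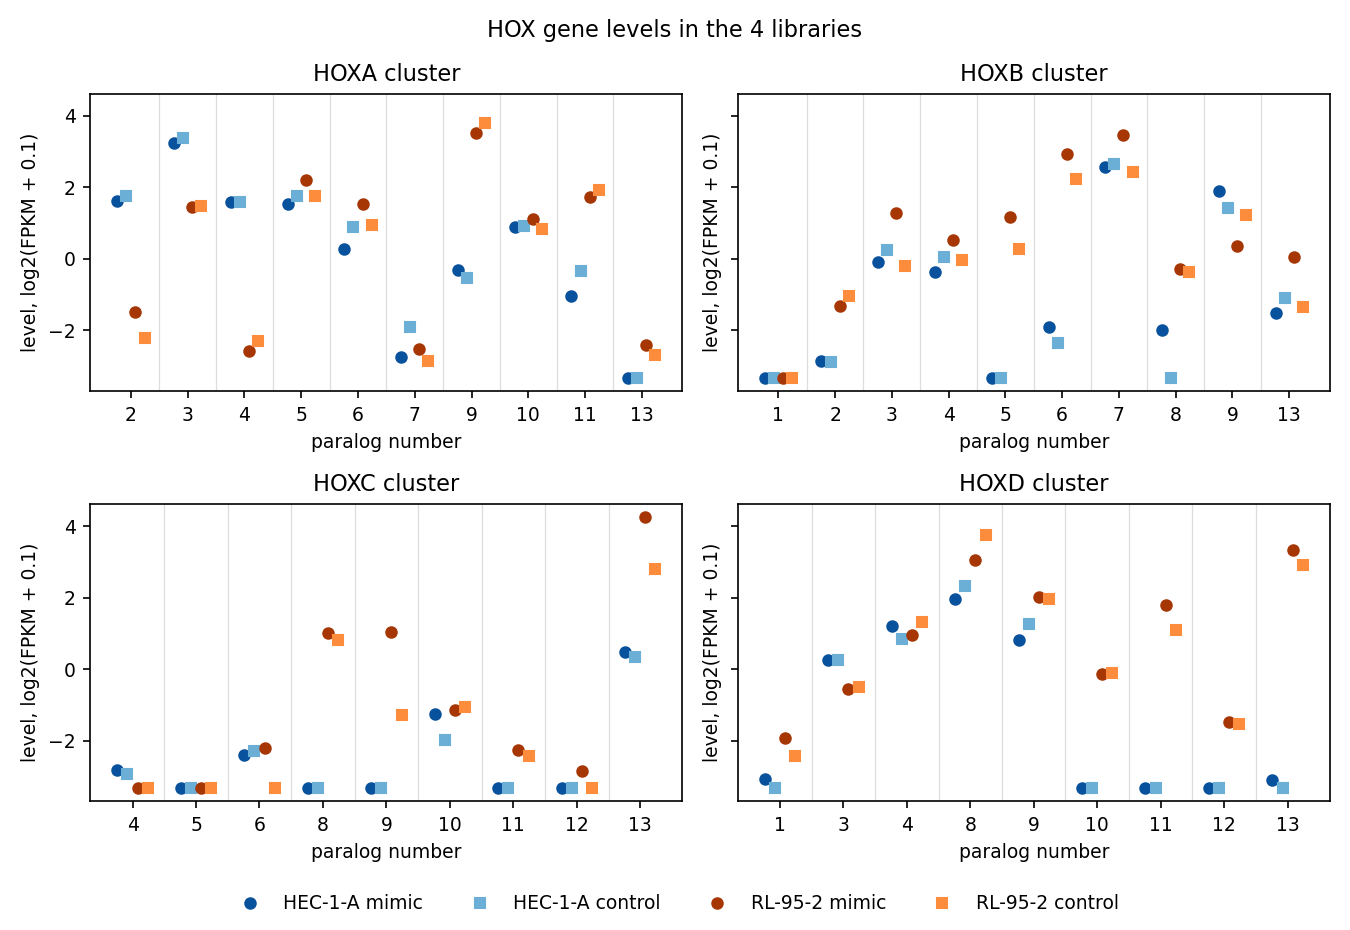
Level of each HOX gene as log2(FPKM + 0.1) by cluster and paralog number, with 1 point per library for the members reported. HOXA3, HOXB7 and HOXD8 lead in HEC-1-A, and HOXC13, HOXA9, HOXB7, HOXD8 and HOXD13 lead in RL-95-2, where the posterior members of HOXC and HOXD are present.

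The summed FPKM of all members was 46.2 with the mimic and 49.0 with the control in HEC-1-A, against 108 in the RL-95-2 mimic and 84.6 in the RL-95-2 control library. Posterior members made up 21.6% and 19.6% of this sum in HEC-1-A, against 54.0% and 51.6% in RL-95-2. Anterior members made up 35.5% and 35.4% in HEC-1-A, against 7.02% and 6.72% in RL-95-2. The balance between the ends of the clusters thus differed more between the lines than between the transfections of a line. HOXA held 52.2% and 53.8% of the HOX sum in HEC-1-A, against 26.3% and 33.4% in RL-95-2. HOXC held 3.75% and 2.97% in HEC-1-A, against 21.5% and 11.0% in RL-95-2, where the mimic library had the higher share. HOXB held 25.1% and 22.9% in HEC-1-A, against 25.3% and 19.2% in RL-95-2, and HOXD held 18.9% and 20.3%, against 26.9% and 36.4%.

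**Figure D2:**
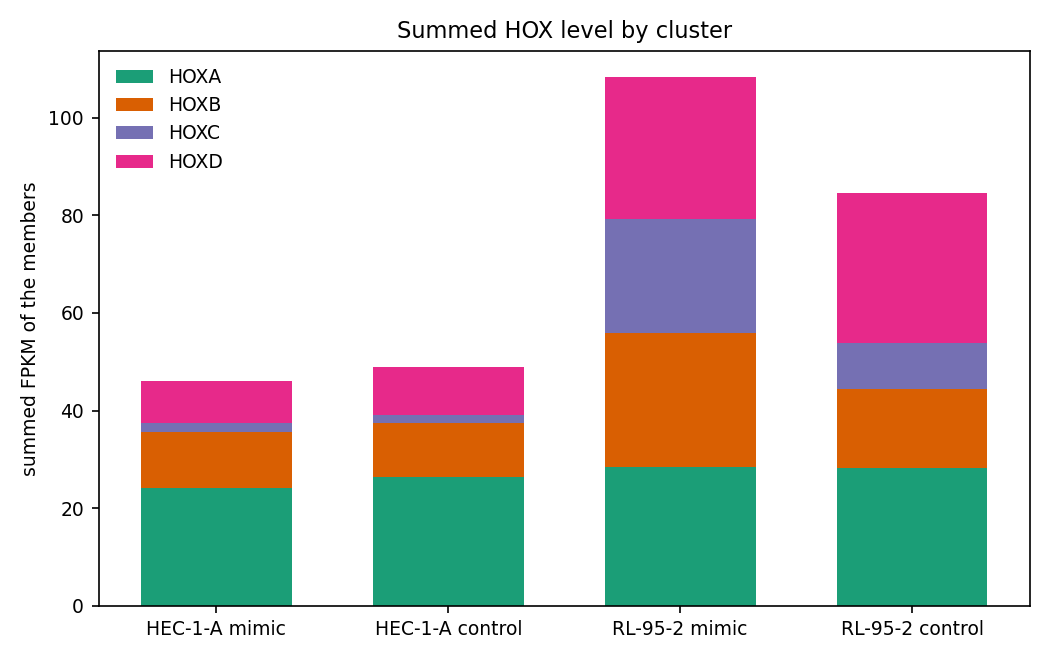
Summed FPKM of the members of each cluster in each library, stacked by cluster, with 1 bar per library. HOXA makes up 52.2% and 53.8% of the HEC-1-A bars with mimic and control, against 26.3% and 33.4% in RL-95-2, and the HOXC sum is 23.3 FPKM in the RL-95-2 mimic library and 9.31 FPKM in its control.

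HOX levels were moderate beside other genes. The member of highest FPKM was HOXA3 in both HEC-1-A libraries, at 9.28 and 10.2 FPKM with mimic and control. In RL-95-2 it was HOXC13 with the mimic, at 18.9 FPKM or the 82.2 percentile of all features, and HOXA9 with the control, at 13.7 FPKM or the 77.7 percentile. HOXB7, a central gene, was among the leading 5 in all 4 libraries, at 5.88 and 6.15 FPKM in HEC-1-A, against 10.9 and 5.26 FPKM in RL-95-2. HOXD8, also central, stood at 3.75 and 4.90 FPKM in HEC-1-A, against 8.21 and 13.4 FPKM in RL-95-2. FPKM is per length, while an order by CPM would share 4 of the leading 5 members in 3 of the libraries. The genes of the Müllerian duct order differed from each other. HOXA9, of the oviduct end, stood at 0.707 and 0.588 FPKM in HEC-1-A against 11.4 and 13.7 FPKM in RL-95-2. HOXA10, of the uterus, stood at 1.75 and 1.79 FPKM in HEC-1-A, against 2.08 and 1.69 FPKM in RL-95-2. HOXA11, of the uterus and cervix, had 0.387 and 0.694 FPKM in HEC-1-A, against 3.19 and 3.70 FPKM in RL-95-2. HOXA13, of the vaginal end, was at 0 counts in HEC-1-A, against 0.0875 and 0.0558 FPKM in RL-95-2.

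The lines were then compared with a quasi-likelihood test on the counts (edgeR, all genes, model of line and transfection, adjusted p under 0.05 called). Of the 39 members, 33 passed the filter on low counts and 6 did not (HOXA7, HOXB1, HOXC4, HOXC5, HOXC12 and HOXD1). HEC-1-A had 3 members higher than RL-95-2 and 15 lower, and 15 were not called. Over all 15957 genes, 16.7% were called higher and 18.3% lower in HEC-1-A, 35.1% in all. By position, 2 anterior genes were higher and 1 lower, 1 central gene was higher and 4 lower, and 0 posterior genes were higher and 10 lower. Of the 15 lower members, 8 had 0 counts in both HEC-1-A libraries, passed the filter through RL-95-2 alone and so had to differ. These and HOXD13, which had 2 counts in HEC-1-A, are described below by their counts and a bound or interval, with no p-value. HOXA4 passed the filter through HEC-1-A alone and HOXB2 through RL-95-2 alone, so both are described in the same way. The counts are therefore given as a description. Each line is 1 line with 2 libraries, and the labels do not say that these came from separate cultures. The 1 residual degree of freedom of the model holds how far the mimic to control ratio differs between the lines. A further 5.44 prior degrees of freedom are drawn from all genes. The p-values thus do not measure a spread between like samples of a line.

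The genes higher in HEC-1-A were neighbours at the anterior side of HOXA. HOXA2, which patterns the hindbrain and branchial arches, had 280 and 223 counts in the HEC-1-A mimic and control libraries, against 25 and 10 in the RL-95-2 mimic and control libraries, a log2 fold change of 4.11 ± 0.56 (SE; edgeR adjusted p = 0.0024). HOXA3, which is needed for the thymus and parathyroid, had 1166 and 920 against 267 and 247 counts, a log2 fold change of 2.20 ± 0.29 (edgeR adjusted p = 0.0020). HOXA4, which passed the filter through HEC-1-A alone, had 224 and 157 against 7 and 9 counts, a log2 fold change of 4.72. The counting interval of its summed ratio ran from 4.04 to 5.58 on the log2 scale. In all 3 both HEC-1-A libraries were above both RL-95-2 libraries, by 17.0-fold, 4.58-fold and 26.1-fold of mean CPM. HOXA5, a gene of lung and mammary development, had 239 and 206 against 391 and 246 counts. HOXA6 had 57 and 65 against 143 and 82 counts. HOXA10 had 231 and 171 against 274 and 195 counts, a log2 fold change of -0.03 ± 0.39 (edgeR adjusted p = 0.96). None of HOXA5, HOXA6 and HOXA10 passed the test. HOXA7, under the filter, had 6 and 13 against 8 and 4 counts.

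Overlap limits these HOXA values. Exonic bases under exons of another gene in GENCODE 29 made up 17.9% for HOXA3, 47.3% for HOXA4, 40.1% for HOXA6, 62.5% for HOXA7, 27.0% for HOXA9, 26.3% for HOXA10 and 31.1% for HOXA11, under antisense RNAs such as HOXA-AS3 and HOXA11-AS and under transcripts on the same strand. For HOXA4 the larger share, 31.0%, lay under AC004080.6 on its own strand, which strand-aware counting would not separate, and 16.3% lay under antisense RNAs. HOXA9 likewise had 15.9% on its own strand, against 13.9% antisense. HOXA2 had no such bases. Whether the counting used strand is not given in the sources used here, so reads of a gene and of its antisense partner cannot be told apart. In all, 18 of the 39 members had over 10% of their exonic bases in such overlaps. With these left out, 1 member (HOXA2) was higher and 10 were lower in HEC-1-A. Among the lower ones, HOXA13, HOXB5, HOXC8, HOXC9, HOXC11 and HOXD12 had 0 counts in HEC-1-A and so had to differ. HOXB2 and HOXD13 also passed the filter through RL-95-2 alone, which leaves HOXC13 and HOXD8. Over all genes, with none left out for overlap, 16.7% were higher and 18.3% lower.

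The HOXA genes lower in HEC-1-A were posterior. HOXA9 (chr7:27162435-27175180), a gene of the oviduct end and of blood progenitors, had 67 and 43 counts in HEC-1-A with mimic and control, against 1064 and 1060 in RL-95-2, a log2 fold change of -4.11 ± 0.36 (edgeR adjusted p = 3.9e-04). HOXA11 had 45 and 60 against 379 and 367 counts, a log2 fold change of -2.65 ± 0.44 (edgeR adjusted p = 0.0053). HOXA13 had 0 and 0 against 23 and 13 counts, which put it at least 5.07-fold lower in HEC-1-A with 3 counts set in each library at 0. Both HEC-1-A libraries were below both RL-95-2 libraries in all 3 genes, and HOXA10, between HOXA9 and HOXA11 on the chromosome, was not separated.

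HOXB split within its central part. HOXB5 had 0 and 0 counts in HEC-1-A, against 229 and 103 in RL-95-2, at least 46.2-fold lower in HEC-1-A. HOXB6 had 17 and 8 against 763 and 381 counts, a log2 fold change of -5.33 ± 0.46 (edgeR adjusted p = 3.8e-04). HOXB2, an anterior gene of the hindbrain, had 4 and 2 against 25 and 28 counts, a log2 fold change of -2.93. It passed the filter through RL-95-2 alone, and the counting interval of its summed ratio ran from -4.47 to -1.74. The HOXB2 call rests on few counts and was lost with no filter on low counts and without either HEC-1-A library. The log2 fold change was then -2.95 with no filter, -3.27 without the HEC-1-A mimic library and -2.73 without the HEC-1-A control library. HOXB6 shares 32.9% of its exonic bases with HOXB3 and HOXB-AS3. HOXB7, which lies beyond HOXB6, had 418 and 317 against 774 and 327 counts, and the HEC-1-A control library was close to the RL-95-2 control library. HOXB4, known for expanding blood stem cells, had 132 and 133 against 262 and 150 counts. HOXB8 had 13 and 0 against 69 and 56 counts and just missed the threshold (log2 fold change -3.54 ± 1.13, edgeR adjusted p = 0.052, range over 12 alternatives 6.9e-04 to 0.11).

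HOXB3, HOXB9 and HOXB13, and HOXB7 with them, were not called between the lines, and each depended on which transfection was compared. HOXB3 was lower in HEC-1-A between the mimic libraries (log2 ratio -1.13) and a little higher between the control libraries (0.21). HOXB13, a gene of the prostate and hindgut, had log2 ratios of -1.72 between the mimic libraries and 0.26 between the control libraries, and HOXB7 had -0.75 and 0.19. HOXB9, which takes part in mammary gland growth, had 1.72 between the mimic libraries and 0.16 between the control libraries. Without the RL-95-2 control library, each of the 4 passed, with edgeR adjusted p-values of 0.0024 for HOXB3, 0.0056 for HOXB7, 1.4e-04 for HOXB9 and 0.0031 for HOXB13. Over the 12 alternatives the adjusted p reached 0.71 for HOXB3, 0.75 for HOXB7, 0.58 for HOXB9 and 0.99 for HOXB13. The 4 genes are the ones whose RL-95-2 libraries differed most within HOXB, as described further on.

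HOXC was nearly silent in HEC-1-A apart from HOXC13, HOXC10, HOXC6 and traces of HOXC4. HOXC13 (chr12:53938765-53946544), which drives hair and nail keratin genes, had 161 and 107 counts in HEC-1-A, against 2374 and 754 in RL-95-2, a log2 fold change of -3.17 ± 0.38 (edgeR adjusted p = 0.0015). HOXC8, of the thoracic level, had 0 and 0 against 186 and 143 counts, at least 47.2-fold lower in HEC-1-A. HOXC9 had 0 and 0 against 155 and 22 counts, at least 23.5-fold lower, a bound that is 7.16-fold without the RL-95-2 mimic library and 39.9-fold without the RL-95-2 control library. HOXC11 had 0 and 0 against 19 and 13 counts, at least 4.56-fold lower. HOXC10, a gene of the lumbar level and hindlimb, had 33 and 11 against 36 and 32 counts and did not pass. HOXC6 had 13 and 7 against 14 and 0 counts and did not pass either; it passed without the RL-95-2 mimic library, which leaves RL-95-2 at 0 (adjusted p = 0.012, range over 10 alternatives 0.012 to 0.87).

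HOXD divided sharply at HOXD9. HOXD13 (chr2:176092891-176095938), which shapes digits and the genital tubercle, had 2 and 0 counts in HEC-1-A, against 1166 and 751 in RL-95-2. The counting interval of its summed ratio ran from -12.77 to -7.87 on the log2 scale. HOXD11, a gene of forearm and kidney, had 0 and 0 against 266 and 140 counts, at least 57.0-fold lower in HEC-1-A. HOXD10 had 0 and 0 against 84 and 75 counts, at least 23.0-fold lower, and HOXD12 had 0 and 0 against 18 and 15 counts, at least 4.76-fold lower. None of these 3 had a count in HEC-1-A. HOXD10 and HOXD11 overlap each other over 16.8% and 21.4% of their exonic bases, so their reads may be split, while HOXD12 and HOXD13 overlap no other gene. HOXD9, next to HOXD10, was present in both lines at 162 and 161 against 381 and 321 counts (log2 fold change -0.93 ± 0.38, edgeR adjusted p = 0.11). It was called without the RL-95-2 mimic library (adjusted p = 0.0066) and without the RL-95-2 control library (0.013), with a range over 12 alternatives of 0.0066 to 0.44.

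Of the remaining HOXD genes, HOXD8, HOXD4 and HOXD3 were present in both lines, and HOXD1 was above the floor in RL-95-2 alone. HOXD8 had 297 and 301 counts in HEC-1-A against 680 and 958 in RL-95-2, a log2 fold change of -1.24 ± 0.31 (edgeR adjusted p = 0.022). Its adjusted p was 0.19 without the HEC-1-A mimic library and 0.078 without the HEC-1-A control library (range over 12 alternatives 9.0e-07 to 0.19). HOXD4 had 168 and 93 against 141 and 159 counts, and HOXD3 had 102 and 71 against 71 and 60. Neither passed, and other exons cover 80.5% of HOXD4 and 74.1% of HOXD3. HOXD1, under the filter, had 2 and 0 against 17 and 8 counts.

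**Figure D3:**
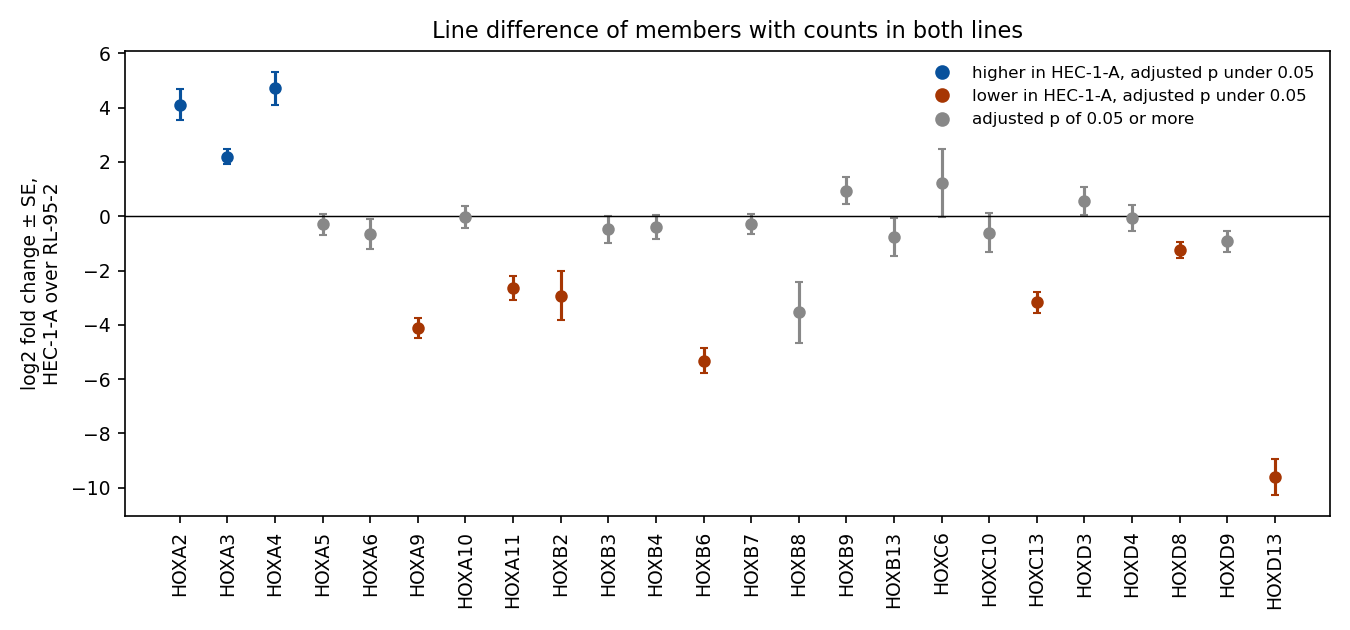
Log2 fold change of HEC-1-A over RL-95-2 with its standard error from the edgeR fit, by cluster and paralog number, for the members with a count in both lines. Points above 0 are higher in HEC-1-A: HOXA2, HOXA3 and HOXA4 stand at 4.11, 2.20 and 4.72, while HOXD13 stands at -9.61. HOXA4, HOXB2 and HOXD13 passed the filter through 1 line alone, so their colours are not read as a test. The HOXD13 point rests on 2 counts in HEC-1-A, with a counting interval of -12.77 to -7.87.

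Among the 18 called members, HOXA2, HOXA3, HOXA9, HOXA11, HOXB6 and HOXC13 kept their call in every alternative of the line comparison that gave an adjusted p. HOXD8 did not. The 8 members at 0 in HEC-1-A are left out here. HOXA4, HOXB2 and HOXD13 are left out as well, since they passed the filter through 1 line alone.

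The mimic was next set against its control in each line. With 1 library against 1 there is no replicate check and no test, so a ratio of 2-fold or more, in a gene averaging 1 CPM or more, was the mark for calling a member apart, and intervals cover counting error only. In RL-95-2, 25 members reached 1 CPM, of which 4 were apart with higher values in the mimic library and 1 with a lower value. Over the 13151 genes at that level, 4.71% were apart higher and 6.52% lower, 11.2% in all. The median log2 ratio of the 25 members was 0.30, and that of all genes was 0.00. The HOXC and HOXB members lay highest, with a median of 1.32 over 3 HOXC genes and 0.73 over 8 HOXB genes, while 7 HOXA genes had a median of 0.15 and 7 HOXD genes a median of -0.09.

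HOXC9 (chr12:53994895-54003337) had 155 counts in the RL-95-2 mimic library and 22 in its control, which made it 5.22-fold higher with the mimic (log2 ratio 2.38, interval 1.83 to 3.20). HOXC13 had 2374 counts with the mimic and 754 with the control, 2.49-fold higher (log2 ratio 1.32, interval 1.20 to 1.44). HOXC8, which lies next to HOXC9, had 186 and 143 counts and a log2 ratio of 0.04. The steps along HOXC were thus uneven. HOXC6 had 14 counts with the mimic and 0 with the control, 3.69-fold higher with 3 counts set for the control. Its counting interval began at 1.39 on the log2 scale. HOXC12 had 7 and 0, 1.85-fold higher in the same way, with an interval that began at 0.19. Both genes lay far below 1 CPM. HOXC10 had 36 and 32 counts and HOXC11 had 19 and 13, with intervals that include 0.

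In HOXB, HOXB13 (chr17:48724763-48729178) had 169 counts in the RL-95-2 mimic library and 47 in its control, 2.78-fold higher (log2 ratio 1.47, interval 1.04 to 2.01). HOXB3 (chr17:48548870-48604912) had 371 and 122 counts, 2.39-fold higher (log2 ratio 1.25, interval 0.97 to 1.57). HOXB9 (chr17:48621159-48626356) had the opposite ratio at 159 and 262 counts, 2.07-fold lower with the mimic (log2 ratio -1.05, interval -1.35 to -0.77). HOXB9 lies between HOXB8 and HOXB13, so opposite ratios occurred inside the cluster. HOXB7 had 774 and 327 counts and was 1.87-fold higher with the mimic, under the 2-fold mark. HOXB5 and HOXB6 were 1.75-fold and 1.58-fold higher, and HOXB4 was 1.38-fold higher. HOXB8 had 69 and 56 counts and a log2 ratio of -0.03, and HOXB2 had 25 and 28 counts, below 1 CPM.

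Scaling mattered in RL-95-2. With library totals in place of TMM factors, the median log2 ratio of all genes moved to 0.13, and of the genes apart 56.1% were higher, against 41.9% with TMM. HOXB9 then stood at -0.92 and was no longer 2-fold apart, and HOXB7 stood at 1.03 and became so. Both ratios moved along with that shift. HOXC9, HOXC13, HOXB13 and HOXB3 kept their direction and stayed 2-fold apart under each scaling.

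HOXA and HOXD genes differed less between the RL-95-2 libraries. HOXD8 had 680 counts with the mimic and 958 with the control, 1.78-fold lower (log2 ratio -0.83, interval -0.98 to -0.69). HOXD11 had 266 and 140 counts (log2 ratio 0.58), and HOXD13 had 1166 and 751 (0.30), both higher with the mimic. HOXD8 and HOXD13, both expressed at many counts, thus had opposite ratios inside 1 cluster. HOXD9 (381 and 321), HOXD10 (84 and 75) and HOXD3 (71 and 60) had intervals that include 0. HOXD4, at 141 and 159 counts, was 1.42-fold lower. In HOXA, HOXA9 was 1.26-fold lower at 1064 and 1060 counts, and HOXA11 was 1.22-fold lower at 379 and 367. HOXA6 was 1.37-fold and HOXA5 1.26-fold higher, and the intervals of HOXA3 and HOXA10 include 0. Below 1 CPM, HOXA2, HOXA4, HOXA7, HOXA13, HOXB2, HOXD1 and HOXD12 had intervals that include 0 as well. Counting intervals of this width exclude 0 for 80.4% of genes at 1 CPM in RL-95-2 and for 53% in HEC-1-A, so an interval without 0 does not set a member apart from other genes.

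**Figure D4:**
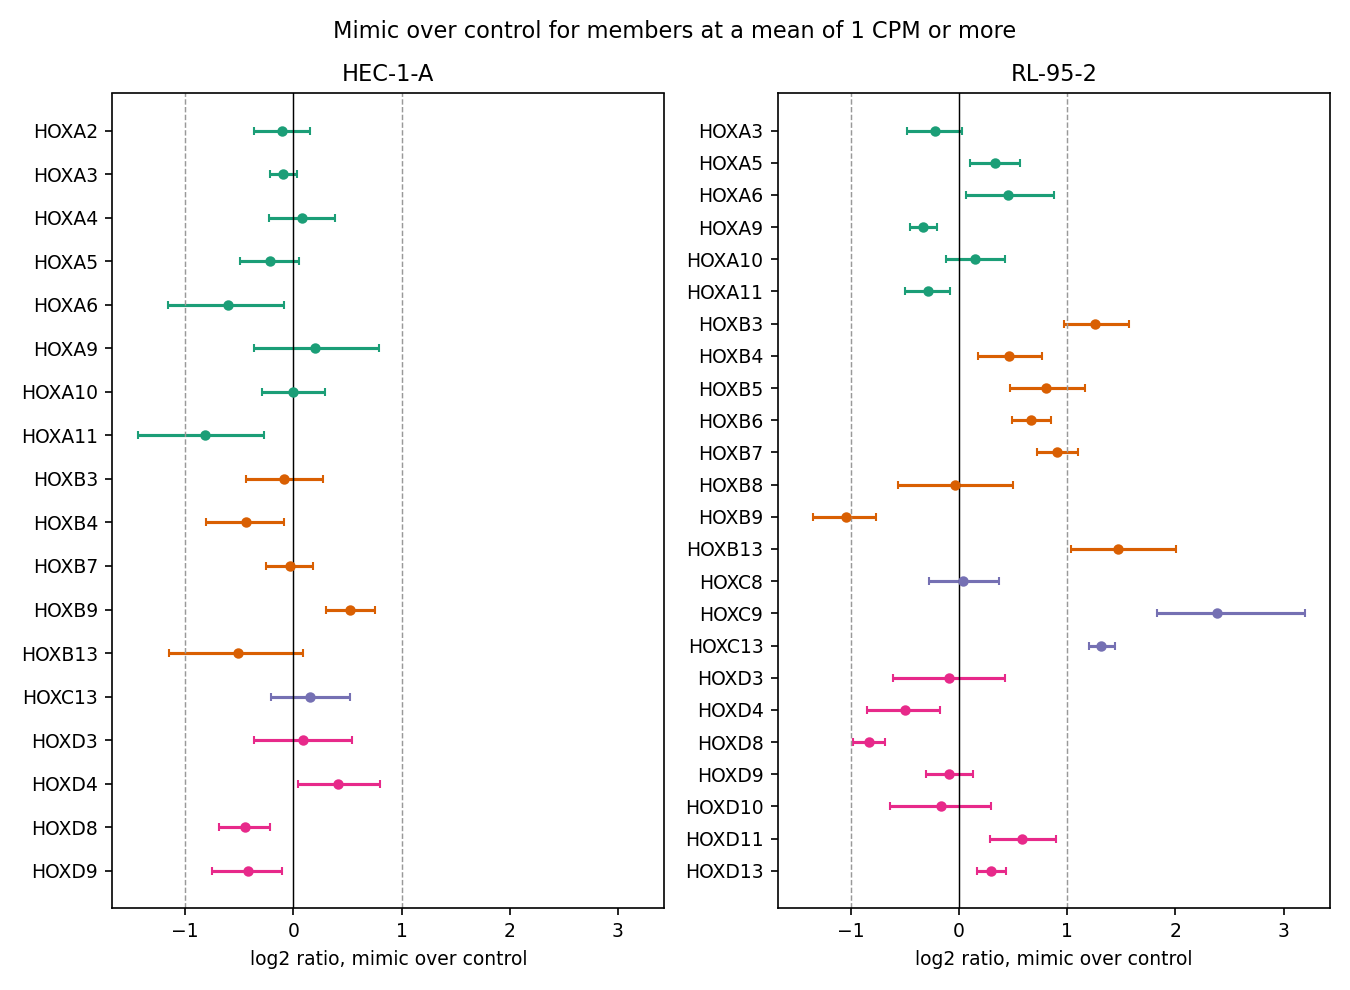
Log2 ratio of the mimic over the control library within each line for members that average 1 CPM or more there, with exact 95% counting intervals. In RL-95-2, HOXC9, HOXB13, HOXC13 and HOXB3 lie above the 2-fold mark and HOXB9 below it, while the members drawn in HEC-1-A lie between the 2-fold marks.

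In HEC-1-A, 19 members reached 1 CPM and 0 of them were 2-fold apart. Over all 12981 genes at that level 1.11% were apart, 0.871% higher and 0.239% lower. The median log2 ratio was -0.08 over the 19 members and 0.02 over all genes. HOXB9 was the member of highest ratio, at 482 counts in the mimic and 248 in the control library (1.44-fold higher, log2 ratio 0.52, interval 0.30 to 0.75). HOXA11 was the lowest, at 45 and 60 counts (1.77-fold lower, log2 ratio -0.82, interval -1.44 to -0.27). Both stayed inside the 2-fold marks. HOXD4 had a log2 ratio of 0.41, and HOXA6, HOXD8, HOXB4 and HOXD9 had -0.61, -0.45, -0.44 and -0.42, each with an interval that excludes 0. Below 1 CPM, HOXC10 had 33 and 11 counts (log2 ratio 1.05, interval 0.13 to 2.28). HOXB8 had 13 and 0, 3.21-fold higher with 3 counts set for the control, and its interval began at 1.17 on the log2 scale. HOXA7 had 6 and 13 counts there (log2 ratio -1.27, interval -3.23 to -0.05). The genes of largest ratio in RL-95-2 were not 2-fold apart here: HOXC9 had no count, HOXC13 had 161 and 107 counts (log2 ratio 0.15, interval -0.21 to 0.52), HOXB3 had 153 and 120 (-0.08, interval -0.44 to 0.27) and HOXB13 had 45 and 48 (-0.51, interval -1.15 to 0.09). The difference between the lines in these ratios was not tested, because each line has 1 pair.

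Over both lines, with the cell line as a block, the edgeR test of mimic over control called 0 of 15957 genes (0%) and 0 of the 33 members tested. At an unadjusted p under 0.05 there were 167 genes and 1 member. DESeq2 called 1 gene higher and 1 lower, limma on log2(FPKM + 0.1) called 2 higher and 1 lower, and both called 0 members. The member was HOXC9, with a log2 fold change of 2.43 ± 0.95 that rests on RL-95-2 alone, since HEC-1-A had no count (edgeR adjusted p = 0.9999). Next came HOXD8, lower with the mimic in both lines (-0.65 ± 0.30), and HOXC13, higher in both (0.77 ± 0.36), each with an edgeR unadjusted p of 0.074.

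Partners and regulators of HOX genes were examined as lists, each read against 16.7% of genes higher and 18.3% lower between the lines. Of 10 measured TALE partners, which bind DNA with HOX proteins, 1 was higher (TGIF2, log2 fold change 0.76) and 3 lower in HEC-1-A, among them MEIS1 (-3.40) and MEIS2 (-2.60). MEIS1 had 75 and 56 counts in HEC-1-A with mimic and control, against 1095 and 552 in RL-95-2. MEIS2 had 182 and 130 against 1349 and 835 counts. In both genes the RL-95-2 libraries were above the HEC-1-A libraries. Of 17 trithorax and MLL genes, 1 was higher (PSIP1, 1.12) and 3 were lower (ASH2L -1.25, SETD1B -0.98, MEN1 -0.89). Of 11 PRC2 genes, 1 was higher (PHF19, 1.26) and 1 lower (JARID2, -1.08), with EZH2, the main methyltransferase, at 18.2 and 18.2 FPKM in HEC-1-A against 27.3 and 18.0 FPKM in RL-95-2. Of 16 PRC1 genes, 0 were higher and 2 lower (CBX2 -3.03, PCGF6 -1.33) with edgeR, and CBX2, a reader subunit, had 341 and 256 against 3408 and 2231 counts.

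Retinoic acid, which switches on anterior HOX genes in embryos, has 13 measured genes of supply and response on the list. In HEC-1-A, 4 were higher than in RL-95-2 (ALDH1A1 5.30, RARA 1.68, CYP26B1 1.30 and ALDH1A2). Lower were 7 (CRABP2 -6.66, STRA6 -5.27, ALDH1A3 -3.06, RARG -2.52, DHRS3 -1.56, RXRA -1.33 and RARB). ALDH1A2 had 65 and 62 counts in HEC-1-A with mimic and control, against 2 and 7 in RL-95-2. RARB had 0 and 5 against 933 and 450 counts. ALDH1A2 passed the filter through HEC-1-A alone and RARB through RL-95-2 alone, so both are given as a description. CRABP2, which carries retinoic acid to its receptor, had 172 and 49 counts in HEC-1-A against 13465 and 8718 in RL-95-2. ALDH1A1, which makes retinoic acid, differed in the other direction at 771 and 577 against 24 and 15 counts. Of 15 measured genes flanking the clusters, 5 were higher in HEC-1-A (JAZF1 4.03, SKAP2 1.85, CALCOCO2 1.40, SNX10 1.35 and TTLL6) and 1 lower (SMUG1, -0.82). TTLL6 had 60 and 23 counts in HEC-1-A, against 0 in RL-95-2. It passed the filter through HEC-1-A alone and so had to differ. Of 3 measured ParaHox relatives, 0 were higher and 2 lower (GBX2 -2.43, MNX1 -1.27), and CDX1, CDX2 and CDX4, which act on HOX clusters in embryos, had no count.

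Of 4 listed genes linked to HOXA10 in endometrium, 3 were tested and called between lines in which HOXA10 itself did not pass the test. IGFBP1, under the filter, had 5 and 4 counts in HEC-1-A with mimic and control, against 0 and 5 in RL-95-2. ITGB3, an integrin of the receptive endometrium, had 18022 and 11811 counts in HEC-1-A with mimic and control, against 11 and 7 in RL-95-2 (log2 fold change 10.86, edgeR adjusted p = 8.0e-05). LIF, an implantation cytokine, had 9457 and 6103 against 89 and 565 counts (5.20, edgeR adjusted p = 0.0041). EMX2, a gene that HOXA10 is known to repress, had 0 and 0 against 36 and 32. EMX2 passed the filter through RL-95-2 alone and so had to differ. For mimic over control in both lines, edgeR, DESeq2 and limma each called 0 of the 88 list genes tested, and 0 had an unadjusted edgeR p under 0.05. Within RL-95-2, LIF was 7.84-fold lower in the mimic library, KDM6B, an H3K27 demethylase, was 3.33-fold lower (1018 and 2692 counts), and CXXC1, a CpG-binding subunit of the SETD1 complexes, was 2.24-fold higher (3465 and 1222 counts). TGIF1 (log2 ratio -1.52), CALCOCO2 (-1.11), DHRS3 (-1.14) and STRA6 (-1.07) were the other list genes 2-fold apart there. Within HEC-1-A they were MEIS3 (1.12) and CRABP2 (1.35). Of 20 noncoding and read-through RNAs of the HOX loci, 1 had a row in the table, HOXA10-HOXA9, with no count in any library.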

How the data were processed

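Poly(A) RNA of HEC-1-A and RL-95-2 cells was measured in 4 libraries, grouped by the transfection and the cell line named in their labels. Raw counts and FPKM values, both by gene, were deposited by the authors. The GRCh38 (hg38) build, HISAT2 and CASAVA are named per the submitters' processing notes. Which counter, annotation and strand option were used is not given in the sources here. Gene positions and overlaps came from GENCODE 29 (GRCh38), and promoters from RefSeq (GRCh38.p14), which matched 20 of the 39 members.

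The edgeR 4.0.16 quasi-likelihood F test (R 4.3.3) was run on the counts, with TMM factors, low counts filtered by transfection, cell line and transfection in the model, and Benjamini-Hochberg adjustment over all 15957 genes at an FDR of 0.05. The labels pair the mimic and control libraries by cell line, which served as the block, and 1 residual degree of freedom remained beside 5.44 prior degrees of freedom. Within a line, the log2 ratio of TMM-scaled CPM used a prior count of 2, with an exact 95% interval from both counts. Libraries at 0 were set to 3 counts for a fold within a line or for a bound on a fold between the lines. Intervals and floors cover counting error only. Date-like symbols (27 features) stayed in totals and tests. The procedure was tested on simulated data. Alternatives were DESeq2 1.42.0, limma 3.58.1 on log2(FPKM + 1) and log2(FPKM + 0.1), other scalings, filters and prior counts, no replicate block, and libraries left out. Every member with at least 10 counts over the 4 libraries was named with values, and of each list the genes called in a comparison. Some genes that meet this rule are not reported here or drawn in the figures. The members and lists were chosen with earlier results of these data known.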

Additional observations from a re-analysis of the deposited data

Results flagged for a closer look

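For 4 members the mimic library was above its control in 1 line and below it in the other, with both counting intervals free of 0. The difference of the log2 ratios, HEC-1-A minus RL-95-2, was 1.57 for HOXB9, 0.92 for HOXD4, -0.90 for HOXB4 and -1.06 for HOXA6. HOXB9 had 482 and 248 counts in HEC-1-A with mimic and control, against 159 and 262 in RL-95-2, and no other gene's exons cover it. HOXD4 had 168 and 93 counts in HEC-1-A, against 141 and 159 in RL-95-2. HOXB4 had 132 and 133 counts in HEC-1-A, against 262 and 150 in RL-95-2. HOXA6 had 57 and 65 counts in HEC-1-A, against 143 and 82 in RL-95-2. Each line has 1 pair of libraries, so these differences were not tested. Counting intervals without 0 are common in these libraries, at 53% of genes in HEC-1-A, against 80.4% in RL-95-2. The share of all genes with opposite ratios by the same rule was not counted, so the 4 members are not set apart from other genes.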

How the results depend on the processing

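Over both lines, mimic against control gave 0 genes with edgeR, against 1 higher and 1 lower with DESeq2 and 2 higher and 1 lower with limma on log2(FPKM + 0.1). With no replicate block it also gave 0 genes and 0 members. That fit leaves the difference between the lines in its error, so it cannot show what the pairing by line changed. Between the lines, leaving out each library in turn gave 1608 to 5156 genes higher and 1851 to 5390 lower in HEC-1-A, with 3 to 5 HOX members higher and 13 to 20 lower. The lower numbers came without either HEC-1-A library and the higher ones without either RL-95-2 library, since those fits drop the transfection and take the spread from the line that keeps both libraries. With members in overlapping exons left out, an alternative chosen after seeing the data, 1 member was higher and 10 lower, as fewer members were counted. Most of those 10 passed the filter through RL-95-2 alone, so their number is a description. Within HEC-1-A, log2(FPKM + 1) gave 13 genes 2-fold higher and 13 lower, and a minimum of 5 CPM gave 18 and 11, against 113 and 31, because a pseudocount shrinks the ratios of low genes and a higher minimum leaves them out. Within RL-95-2, log2(FPKM + 1) gave 352 genes higher and 375 lower, with 2 and 0 members, and 5 CPM gave 336 genes higher, with 2 and 0 members, against 619 and 857 genes and 4 and 1 members. Scaling by library total and log2(FPKM + 0.1) each left 0 members 2-fold lower. HOXC9 and HOXC13 stayed 2-fold apart on each log scale, while HOXB3 stood at 0.90 and HOXB13 at 0.58 with log2(FPKM + 1). Depth limits HOXA7, HOXC4, HOXC12 and HOXD1, whose counts lie near the floor.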
